A study of Mus musculus with 4 samples.

Results

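The 3 transforming growth factor beta (TGF-beta) ligand genes, the 3 TGF-beta receptor genes and the 4 genes of latent TGF-beta binding proteins were followed in mouse lung RNA. They were chosen by gene symbol in the unfiltered table of log2 CPM (reads scaled to a common library total), with SA libraries set against WT libraries. The table holds 46603 Ensembl genes, and 10 of 10 symbols matched 1 identifier each. All 10 genes are also among the 12850 genes of the deposited filtered table, on which the test was run.

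Lung RNA came from littermate mice aged 6 to 8 weeks on the C57BL/6 background. The WT group of 2 libraries carried the normal Ifnar1 gene (Ifnar1+/+). The SA group of 2 libraries carried the Ifnar1 S526A allele, which replaces a serine with alanine in a chain of the receptor for type I interferons. Tumour conditioned medium from B16F10, a melanoma cell line of mouse, was given to both groups, 100 µl by vein 3 times weekly over 3 weeks. Lungs of untreated mice are not analysed here. Values of 2 libraries are given with replicate 1 before replicate 2. The series title concerns receptor loss caused by tumour-derived factors and chemokine production, and the comparison gives the TGF-beta genes under the same contrast.

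TGF-beta is secreted as an inactive complex, in which the mature ligand stays bound to its own propeptide. Latent TGF-beta binding proteins (LTBPs) attach that complex to fibrillin and fibronectin in the matrix, where integrins, proteases or thrombospondin can free the ligand. Free ligand binds the type II receptor, which then phosphorylates the type I receptor, and the signal passes to Smad proteins. In lung the pathway is known for its part in alveolar septation, elastic fibre assembly and fibrosis.

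The libraries held 27381916 to 38378936 gene reads. The 10 genes had 415 to 11579 reads in each library. Alveolar epithelial marker genes were abundant in every library, at a summed 25113 to 33045 CPM. The libraries differed in their muscle content within and between genotypes: 12 cardiac muscle marker genes summed to 517 and 935 CPM in WT and to 1591 and 2736 CPM in SA. Adipocyte markers summed to 126 and 1382 CPM in WT and to 331 and 1744 in SA. In bulk tissue, fewer cells of a type and less RNA per cell cannot be told apart. The design text speaks of biological replicates but no label ties a library to an animal, so the spread behind each p-value is that of these samples.

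The latent binders, Tgfb1, Tgfbr3 and Tgfbr2 were lower in SA lungs, while Tgfb3 and Tgfbr1 were level between the genotypes. Of the 10 genes, 8 had both SA libraries below both WT libraries, and in the other 2 the groups overlapped. Over all 12850 genes, 22.9% had groups that did not overlap with SA lower. The median difference over the 10 genes was -0.34 on the log2 CPM scale, against 0.06 over all genes tested, of which 39.6% were lower in SA. Adjusted over all genes, 0 of the 10 passed the threshold of 0.05 (limma, Benjamini-Hochberg), where 0.148% of all genes passed with SA lower and 0.163% with SA higher. At an unadjusted p under 0.05, 7 of the 10 were lower and 0 were higher, where 10.9% of all genes were lower and 16.4% were higher. The lowest adjusted p was 0.0502, for Ltbp1, a value reached by 318 genes in all. The same test was also run on all 46603 genes without the filter. There Tgfb1, Tgfbr3, Ltbp1, Ltbp3 and Ltbp4 passed, each lower in SA, where 1.54% of all genes passed with SA lower. That share also counts the genes outside the 12850 of the filtered table, and the prior degrees of freedom of the fit rose from 2.25 to 13.8.

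**Figure D1:**
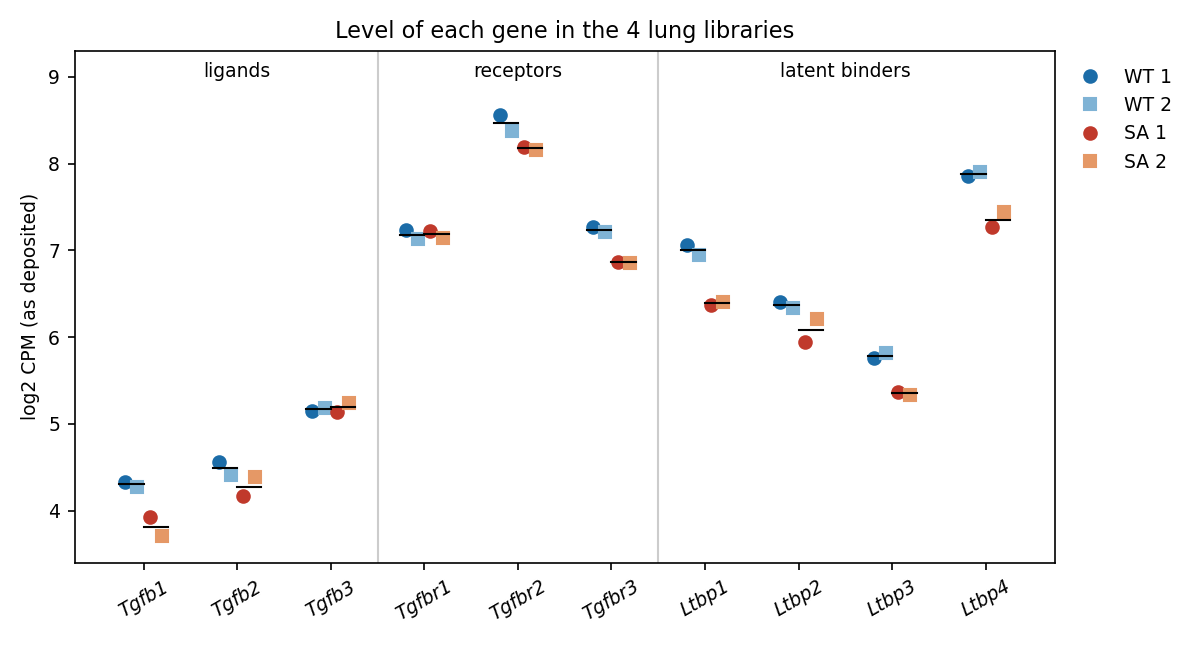
Log2 CPM as deposited (vertical axis) of the 10 genes in WT 1, WT 2, SA 1 and SA 2; black bars are group means. Both SA points lie below both WT points for 8 genes, while the points of Tgfb3 and Tgfbr1 are mixed.

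**Figure D2:**
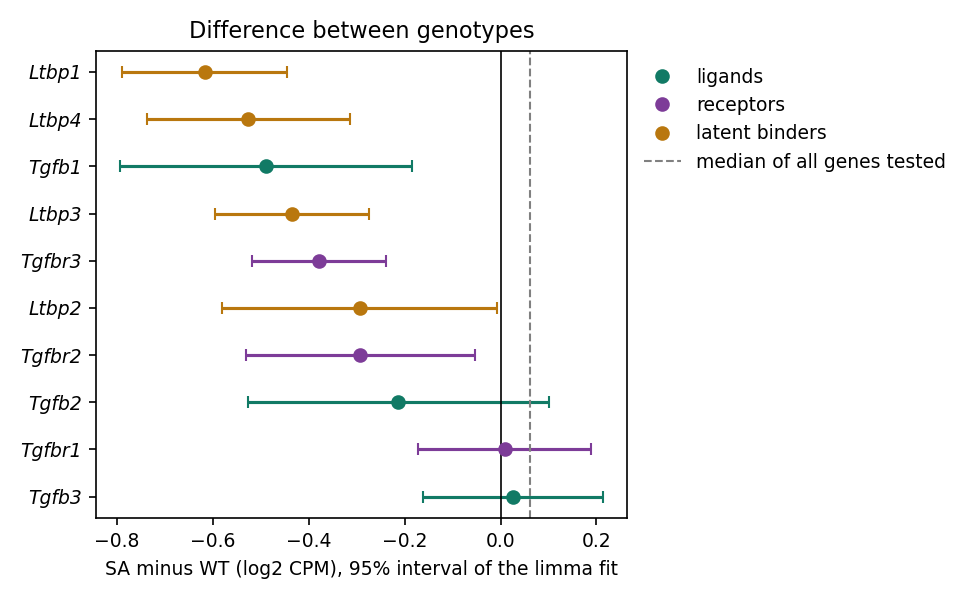
SA minus WT on the log2 CPM scale (horizontal axis) for each gene, with the 95% interval of the limma fit; the dashed line is the median of all genes tested (0.06). The intervals of Ltbp1, Ltbp4, Tgfb1, Ltbp3, Tgfbr3, Tgfbr2 and Ltbp2 lie below 0, and those of Tgfb2, Tgfbr1 and Tgfb3 span it.

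Tgfb1 encodes the ligand best known from platelets, immune cells and fibrosis. The gene (ENSMUSG00000002603) spans chr7:25687002-25705077 on the plus strand of GRCm38 and has 5042 exonic bases in GENCODE M21. The WT libraries stood at 4.33 and 4.27 log2 CPM and the SA libraries at 3.92 and 3.70. Both SA libraries were lower, and the gap between the groups (0.34) was wider than the step within WT (0.07) or within SA (0.22). The difference was -0.49 ± 0.11 (SE; 95% interval from -0.79 to -0.18; limma adjusted p = 0.095), or 1.40-fold lower. It was -0.38 without SA 2 and -0.60 without SA 1, so its size leans on SA 2.

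Tgfb2, whose product depends on the type III receptor for efficient receptor binding, showed a smaller difference. The gene (ENSMUSG00000039239) lies at chr1:186622792-186705989 on the minus strand. On the log2 CPM scale WT held 4.56 and 4.41, and SA 4.16 and 4.38. WT 2 and SA 2 lay 0.03 apart, so the groups were only just separate. The difference of -0.21 ± 0.12 (SE) had an interval from -0.53 to 0.10 (limma adjusted p = 0.31). It was -0.10 without SA 1 and -0.32 without SA 2.

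Tgfb3, a ligand known from palate and lung development, was the most abundant of the 3 per length of exon. The gene (ENSMUSG00000021253) lies at chr12:86056745-86079041 on the minus strand. Levels were 5.15 and 5.19 log2 CPM in the WT libraries, against 5.14 and 5.24 in the SA libraries. The groups overlapped, and the difference was 0.03 ± 0.07 (SE; interval from -0.16 to 0.21; limma adjusted p = 0.84). Its sign turned under median centring (-0.065), quantile normalization (-0.049) and voom with median-of-ratios scaling (-0.036).

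Per kilobase of exon, Tgfb3 stood at 10.6 ± 0.2 CPM in WT and 10.8 ± 0.5 in SA (SD, n = 2). Tgfb1 stood at 3.91 ± 0.13 in WT and 2.79 ± 0.30 in SA, and Tgfb2 at 3.87 ± 0.28 and 3.34 ± 0.36. In WT the levels of Tgfb1 and Tgfb2 did not differ beyond their spread, and in SA both libraries of Tgfb2 lay above both of Tgfb1. Tgfb3 thus made up 56.5% and 58.9% of the summed ligand level per kilobase in the WT libraries, and 63.1% and 64.4% in the SA libraries. The share of Tgfb1 was 21.6%, 20.9%, 18.2% and 14.9% in the same order. The log2 ratio of Tgfb3 to Tgfb1 per kilobase, which a single scaling factor for each library cannot change, was 1.39 and 1.49 in WT and 1.79 and 2.12 in SA. With 2 libraries in each group no exact permutation test of such a ratio can reach 0.05, so the ratios are given as values.

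Tgfbr2 encodes the type II receptor, which binds ligand first, and had the highest level per kilobase of the 10 genes. The gene (ENSMUSG00000032440) lies at chr9:116084293-116175360 on the minus strand. Log2 CPM values were 8.56 and 8.37 for WT and 8.19 and 8.16 for SA. Both SA libraries were lower, by a gap of 0.18 that was about as wide as the step within WT (0.19). The difference was -0.29 ± 0.09 (SE; limma adjusted p = 0.14), and it was -0.20 without WT 1 and -0.39 without WT 2.

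Tgfbr3 encodes betaglycan, a co-receptor that presents ligand to the type II receptor. The gene (ENSMUSG00000029287) lies at chr5:107106570-107289629 on the minus strand. WT lungs gave 7.26 and 7.21 log2 CPM, and SA lungs 6.86 and 6.86. The gap between the groups (0.35) was far wider than the step within either genotype (0.05 and 0.002). The difference was -0.38 ± 0.05 (SE; interval from -0.52 to -0.24; limma adjusted p = 0.052), or 1.30-fold lower. Of its exonic bases, 297 (4.54%) are shared with Gm43422 on the same strand, a gene listed with 9 to 30 reads.

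Tgfbr1, the type I receptor kinase that phosphorylates Smad2 and Smad3, showed no such step. The gene (ENSMUSG00000007613) lies at chr4:47353222-47414931 on the plus strand. The WT libraries stood at 7.23 and 7.13 log2 CPM and the SA libraries at 7.23 and 7.15, and the groups overlapped. The difference was 0.01 ± 0.07 (SE; interval from -0.17 to 0.19; limma adjusted p = 0.95), and its sign turned under median centring (-0.081) and voom with median-of-ratios scaling (-0.054). The log2 ratio of Tgfbr2 to Tgfbr1 per kilobase was 1.01 and 0.92 in WT and 0.64 and 0.68 in SA. Both SA libraries were lower. The ratio of Tgfbr3 to Tgfbr2 overlapped between the groups, at -0.98 and -0.84 in WT and -1.01 and -0.98 in SA.

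**Figure D3:**
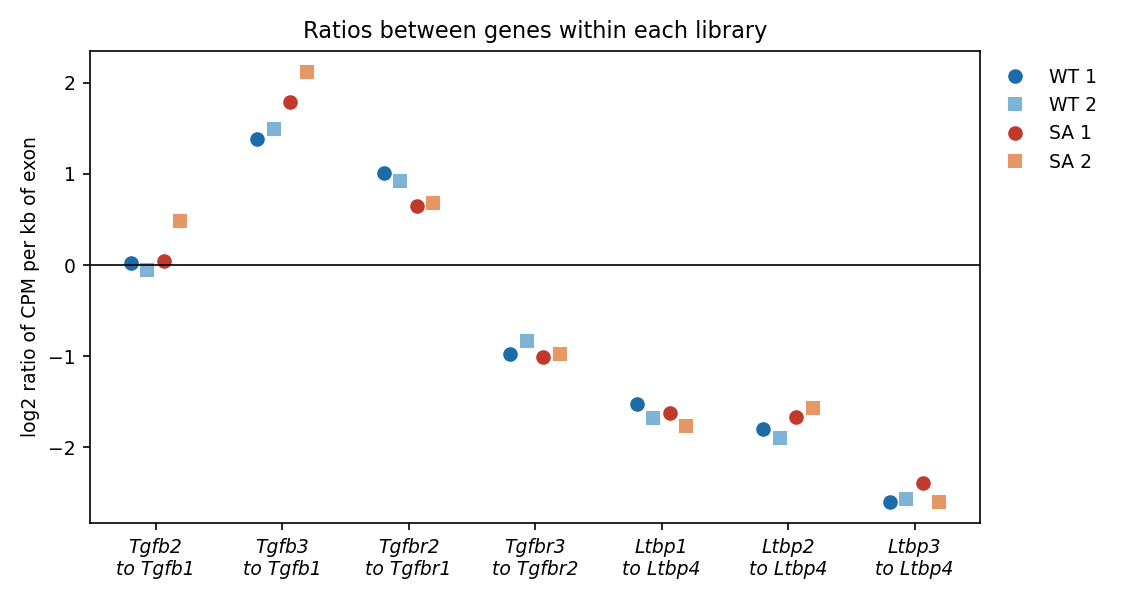
Log2 ratio of CPM per kilobase of exon (vertical axis) for pairs of genes in each library. The ratios of Tgfb3 to Tgfb1, Tgfbr2 to Tgfbr1 and Ltbp2 to Ltbp4 separate the genotypes, while Tgfbr3 to Tgfbr2, Ltbp1 to Ltbp4 and Ltbp3 to Ltbp4 overlap. That of Tgfb2 to Tgfb1 is only just separate, at 0.025 and -0.054 in WT and 0.040 and 0.481 in SA.

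All 4 latent binders were lower in both SA libraries than in both WT libraries, with a median difference of -0.48. Their summed level per kilobase was 64.8 and 64.5 CPM in WT, against 43.7 and 48.2 CPM in SA. The summed ligands stood closer, at 18.5, 18.2, 16.5 and 17.4 CPM, and the summed receptors at 92.7, 84.4, 76.4 and 74.3 CPM. No sum was tested.

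Ltbp1, which covalently binds the latent complex of all 3 ligands and targets it to the matrix, showed the largest difference of the 10 genes in the main fit, though under quantile normalization Tgfb1 (-0.64) passed it (-0.61). The gene (ENSMUSG00000001870) lies at chr17:75005568-75392512 on the plus strand. On the log2 CPM scale WT held 7.07 and 6.95, and SA 6.37 and 6.40. The gap between the groups (0.54) was wider than the step within WT (0.12) or SA (0.03). The difference was -0.62 ± 0.06 (SE; interval from -0.79 to -0.44; limma adjusted p = 0.0502), or 1.53-fold lower, and it ranged from -0.68 to -0.56 with any 1 library left out.

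Ltbp4, a binder of latent TGF-beta 1 that also promotes elastic fibre assembly in lung, was the most abundant of the 4 per kilobase. The gene (ENSMUSG00000040488) lies at chr7:27305136-27337692 on the minus strand. Levels were 7.86 and 7.90 log2 CPM in the WT libraries, against 7.27 and 7.44 in the SA libraries. Both SA libraries were lower. The difference was -0.53 ± 0.08 (SE; interval from -0.74 to -0.31; limma adjusted p = 0.058), or 1.44-fold lower.

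Ltbp3, known from skeletal and tooth development, was the least abundant binder per kilobase. The gene (ENSMUSG00000024940) lies at chr19:5740904-5758532 on the plus strand. Log2 CPM values were 5.76 and 5.82 for WT and 5.37 and 5.33 for SA. Both SA libraries were lower, and the difference was -0.44 ± 0.06 (SE; limma adjusted p = 0.052).

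Ltbp2, a microfibril protein that does not bind latent TGF-beta covalently, had the smallest difference of the 4 in the main fit. Without SA 2, that of Ltbp3 (-0.416) was smaller than that of Ltbp2 (-0.427). The gene (ENSMUSG00000002020) lies at chr12:84783212-84876532 on the minus strand. WT lungs gave 6.40 and 6.34 log2 CPM, and SA lungs 5.94 and 6.21. SA 2 lay 0.13 below WT 2, a smaller gap than the step within SA (0.27). The difference was -0.29 ± 0.11 (SE; interval from -0.58 to -0.01; limma adjusted p = 0.18), and it was -0.16 without SA 1 and -0.43 without SA 2. Of its exonic bases, 764 (9.34%) overlap D030025P21Rik on the opposite strand, a gene listed with 6 to 16 reads, and the sources do not say whether the counting used strand.

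Of the summed binder level per kilobase, Ltbp4 held 55.5% and 57.2% in WT, against 54.6% and 55.6% in SA. The log2 ratio of Ltbp1 to Ltbp4 was -1.52 and -1.68 in WT and -1.62 and -1.76 in SA, and that of Ltbp3 to Ltbp4 was -2.59 and -2.57 in WT and -2.39 and -2.60 in SA. Both ratios overlapped between the genotypes. The log2 ratio of Ltbp2 to Ltbp4 did not, at -1.80 and -1.90 in WT and -1.66 and -1.57 in SA. The ratio of Ltbp1 to Ltbp2 was also separate, at 0.28 and 0.22 in WT and 0.04 and -0.19 in SA, the widest shift among the binder ratios computed (-0.32). This ratio was not planned, and it pairs the binder of the largest difference in the main fit with that of the smallest.

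The order of levels per kilobase in WT was Tgfbr2 (43.3 ± 4.1 CPM), Ltbp4 (36.4 ± 0.7), Tgfbr3 (23.1 ± 0.6), Tgfbr1 (22.2 ± 1.1), Ltbp1 (12.0 ± 0.7), Tgfb3, Ltbp2 (10.1 ± 0.3), Ltbp3 (6.08 ± 0.18), Tgfb1 and Tgfb2 (SD, n = 2). Of the neighbours in this order, Tgfbr3 with Tgfbr1 and Tgfb1 with Tgfb2 overlapped in their libraries. In SA, Tgfbr1 (22.3 ± 0.9) stood above Tgfbr3 (17.7 ± 0.02), and Tgfb3 stood above Ltbp2 (8.28 ± 1.08) and Ltbp1 (7.84 ± 0.11), which overlapped each other.

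The 10 genes lie on 8 chromosomes, and 0 of them on chromosome 16, where Ifnar1 lies. Tgfb1 and Ltbp4, both lower in SA, lie 1.60 Mb apart on chromosome 7. Ltbp2 and Tgfb3, of which the first was lower and the second level, lie 1.18 Mb apart on chromosome 12. Ifnar1 itself was level, with a difference of 0.01 ± 0.08 (SE; limma adjusted p = 0.93).

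Promoter sequence was read for the genes that carry the contrast in these data. RefSeq windows on GRCm38.p6, of 250 bases before to 50 after a start, were found for 8 of the 10 genes, with 12 windows in all. Tgfb3 and Tgfbr3 had none. The sequences are those of Tgfb1, Ltbp1 and Ltbp4, which had the largest differences, and of Tgfbr1, which was level. Each is the stretch before the most upstream start, 5′ to 3′ on the gene's strand. Capitals mark the letters GCGNGGGCG, matched by EGR factors, and GGGCGG, matched by Sp1, on either strand. The 2 motifs can overlap.
Tgfb1, chr7:25686752-25687001, plus strand: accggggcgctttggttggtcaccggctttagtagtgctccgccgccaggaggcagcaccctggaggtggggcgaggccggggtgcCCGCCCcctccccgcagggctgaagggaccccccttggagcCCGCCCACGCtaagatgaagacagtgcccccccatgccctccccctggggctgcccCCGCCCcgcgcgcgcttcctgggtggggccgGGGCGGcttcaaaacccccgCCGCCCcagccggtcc
Ltbp1, chr17:75005279-75005528, plus strand: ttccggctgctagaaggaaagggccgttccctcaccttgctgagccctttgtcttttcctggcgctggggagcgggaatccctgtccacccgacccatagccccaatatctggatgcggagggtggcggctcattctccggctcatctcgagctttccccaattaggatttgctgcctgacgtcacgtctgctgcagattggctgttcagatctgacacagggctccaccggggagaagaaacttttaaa
Ltbp4, chr7:27337693-27337862, minus strand: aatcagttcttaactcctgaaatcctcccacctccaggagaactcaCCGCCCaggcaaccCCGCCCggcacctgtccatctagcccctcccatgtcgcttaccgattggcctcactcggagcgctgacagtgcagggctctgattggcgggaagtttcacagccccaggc
Tgfbr1, chr4:47352972-47353221, plus strand: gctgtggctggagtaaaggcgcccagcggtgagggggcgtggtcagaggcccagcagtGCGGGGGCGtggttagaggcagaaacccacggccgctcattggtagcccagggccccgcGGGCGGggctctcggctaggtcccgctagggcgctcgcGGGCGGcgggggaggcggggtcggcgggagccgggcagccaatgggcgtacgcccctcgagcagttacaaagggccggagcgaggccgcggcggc

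The Tgfb1 stretch holds 1 EGR match and 5 Sp1 matches, that of Tgfbr1 holds 1 and 2, that of Ltbp4 holds 0 and 2, and that of Ltbp1 holds 0 of either. Over the whole 300-base windows, GCGNGGGCG occurred in 4 of the 12 windows of these genes (Tgfb1, Tgfbr1 and 2 downstream starts of Ltbp4, which overlap) and in 5.55% of all 32851 windows in the table. Those 4 windows were 74.7% to 81.3% G and C, against a median of 52.7% over all windows, and motif frequency was not adjusted for base content. GGGCGG occurred in 6 of the 12 (also in Ltbp2) and in 35.7% of all. The interferon-stimulated response element, GAAA repeated after 2 free bases and searched on both strands, was in 0 of the 12 and in 3.44% of all windows. The AP-1 motif TGANTCA was in 1 of the 12, that of Ltbp3, and in 7.81% of all. A match is a description of the letters, and gene counts do not show which start was used.

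Genes with the most similar profile over the 4 libraries were named by the smallest root mean square distance of centred log2 CPM among 10301 genes. For Ltbp1 they were Prx (0.017), Arl4d (0.020) and Dennd5b (0.021), and for Tgfb1 they were Impdh1 (0.010), Vsig2 (0.012) and Gucy1a2 (0.014). Within a distance of 0.1 lay 229 genes for Ltbp1 and 356 for Tgfb1, so 4 libraries leave many genes with the same profile.

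The other genes of the pathway were taken from 5 lists with 98 genes, the 10 left aside. Of these, 90 are in the filtered table, and 64 were lower and 26 higher in SA, with a median difference of -0.14. By limma, 0 of the 90 had an adjusted p under 0.05, and at an unadjusted p under 0.05 there were 33 lower (10.9% of all genes) and 5 higher (16.4% of all genes). The groups did not overlap in 43 genes with SA lower (22.9% of all genes) and in 9 with SA higher (37.8% of all genes).

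Genes that secure, process or activate the latent complex were lower in 16 of 22 cases (median difference -0.25). Thbs1, a matrix protein that can activate latent TGF-beta, was at 9.09 and 9.34 log2 CPM in WT and 8.07 and 7.97 in SA, which differ by -1.19 ± 0.11 (SE; limma adjusted p = 0.0502). Lrrc32, which holds latent TGF-beta at the cell surface, was at 5.46 and 5.09 in WT and 4.10 and 4.13 in SA, which differ by -1.16 ± 0.14 (SE; limma adjusted p = 0.0502). Both genes differed by more than any of the 10. Plat, a plasminogen activator, differed by -0.77 and Furin, the protease that cuts the propeptide, by -0.36.

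Smad genes and their regulators were lower in 12 of 19 cases (median -0.06). Smad3, a transducer of TGF-beta signals, was higher in both SA libraries, at 5.57 and 5.57 in WT and 5.94 and 6.00 in SA, which differ by 0.40 ± 0.06 (SE; limma adjusted p = 0.052). The ubiquitin ligase genes Nedd4l and Smurf1, which limit signalling, differed by -0.46 and -0.32, and Ski, a corepressor of Smads, by -0.24.

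Related receptors were lower in 7 of 13 cases (median -0.06). Eng, an endothelial co-receptor, differed by -0.62 ± 0.11 (SE; limma adjusted p = 0.071) and Bmpr2, the type II receptor for bone morphogenetic proteins, by -0.47. Bmpr1b and Acvr1b, both type I receptors, were higher by 0.59 and 0.17. Leaving out SA 2 or WT 1 gave this list a median above 0 (0.0086 and 0.017).

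Matrix partners of the latent complex were lower in 14 of 17 cases (median -0.15). Fbn1, the fibrillin to which LTBPs attach, differed by -0.53 ± 0.07 (SE; limma adjusted p = 0.054). Adamtsl2, a microfibril-associated protein, differed by -0.56, Bgn (biglycan) by -0.48 and Eln (elastin) by -0.46.

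TGF-beta induced genes were lower in 18 of 23 cases (median -0.28). Lox, which crosslinks collagen and elastin, was at 6.52 and 6.62 log2 CPM in WT and 5.98 and 5.91 in SA, which differ by -0.63 ± 0.06 (SE; limma adjusted p = 0.0502). Both SA libraries were lower. Col1a1, a collagen chain, differed by -0.61 and Junb, an AP-1 subunit, by -0.51. These genes also respond to other signals, and Smad activity was not measured.

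**Figure D4:**
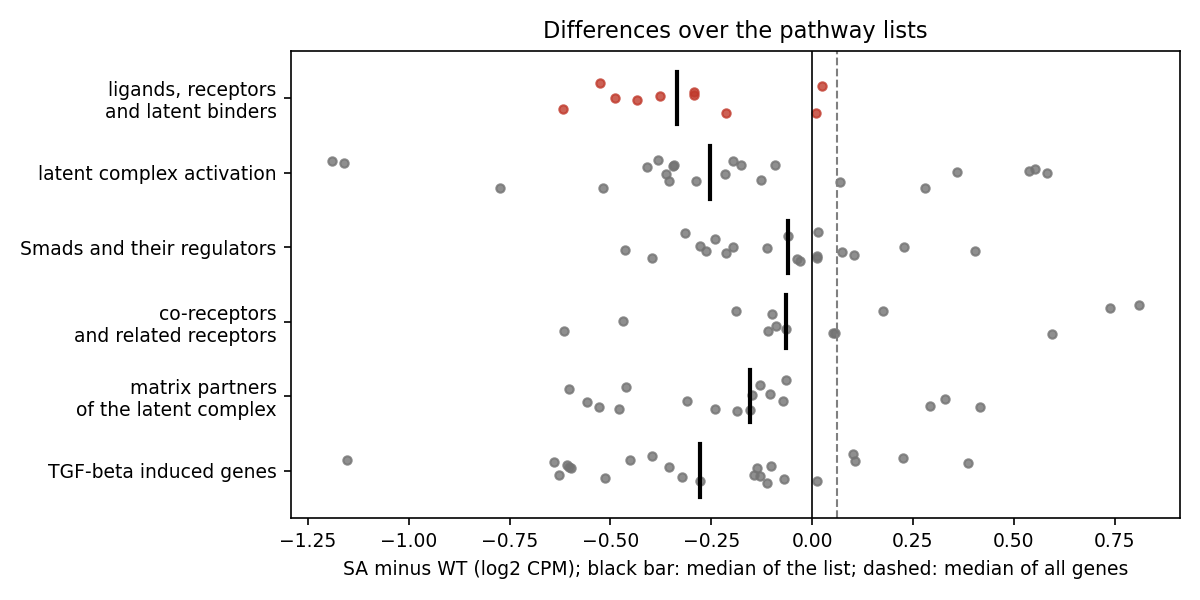
SA minus WT on the log2 CPM scale (horizontal axis) for each tested gene of the 10 (red) and of the 5 pathway lists (grey); black bars are list medians and the dashed line is the median of all genes (0.06). The medians run from -0.34 for the 10 genes to -0.06 for the Smad and related receptor lists.

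Muscle markers were higher in SA, although limma called 1 of the 12 cardiac and 0 of the 10 skeletal markers at an adjusted p under 0.05, and 0 on the other marker lists. Cardiac muscle markers had a median difference of 1.81 (12 of 12 higher) and skeletal muscle markers of 1.25 (10 of 10 higher). The cardiac list had a median of 0.96 for WT 2 minus WT 1 and of 0.80 for SA 2 minus SA 1, while the 10 TGF-beta genes had -0.07 and 0.01. Without WT 1, the library lowest in muscle, the median over the 10 genes was -0.31, and without SA 2, the highest, it was -0.38. The cardiac median was still 1.27 without WT 1 and 1.39 without SA 2, so neither step removed the muscle difference between the genotypes. The part of muscle RNA in the differences was not tested.

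Cells that normally express these genes gave mixed values. Endothelial markers had a median of -0.18 (10 of 12 lower) and summed to 6716, 6082, 6210 and 5016 CPM in WT 1, WT 2, SA 1 and SA 2, so the groups overlapped. The endothelial median ran from -0.32 without SA 1 to -0.06 without SA 2. The 12 fibroblast markers had a median of -0.14 (7 lower) and summed to 3556 and 3372 CPM in WT and 3078 and 2896 in SA. Their median was -0.22 without SA 1, -0.07 without WT 1 and -0.04 without SA 2. At the last, 6 of 12 were lower. Smooth muscle and pericyte markers had a median of 0.41 (7 of 10 higher), and their sum was 1078 and 1194 CPM in WT and 1331 and 1586 in SA. Their median was 0.18 without SA 2. Macrophage and monocyte markers had a median of 0.06 (6 of 12 lower) that turned to -0.03 without WT 2, and the sum of platelet markers overlapped, at 126 and 104 CPM in WT and 115 and 102 in SA. Of the markers found in the table, which lacked the symbol of 1 cartilage marker, none was at 0 reads in all 4 libraries. The fibroblast markers Col1a1, Col1a2 and Col3a1 are also on the list of TGF-beta induced genes, as are the smooth muscle markers Acta2 and Tagln. The fibroblast markers Dcn and Mfap4 are also on the list of matrix partners. The marker lists and the pathway lists are therefore not separate readings for these genes. The part of cell composition in the differences was not tested.

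**Figure D5:**
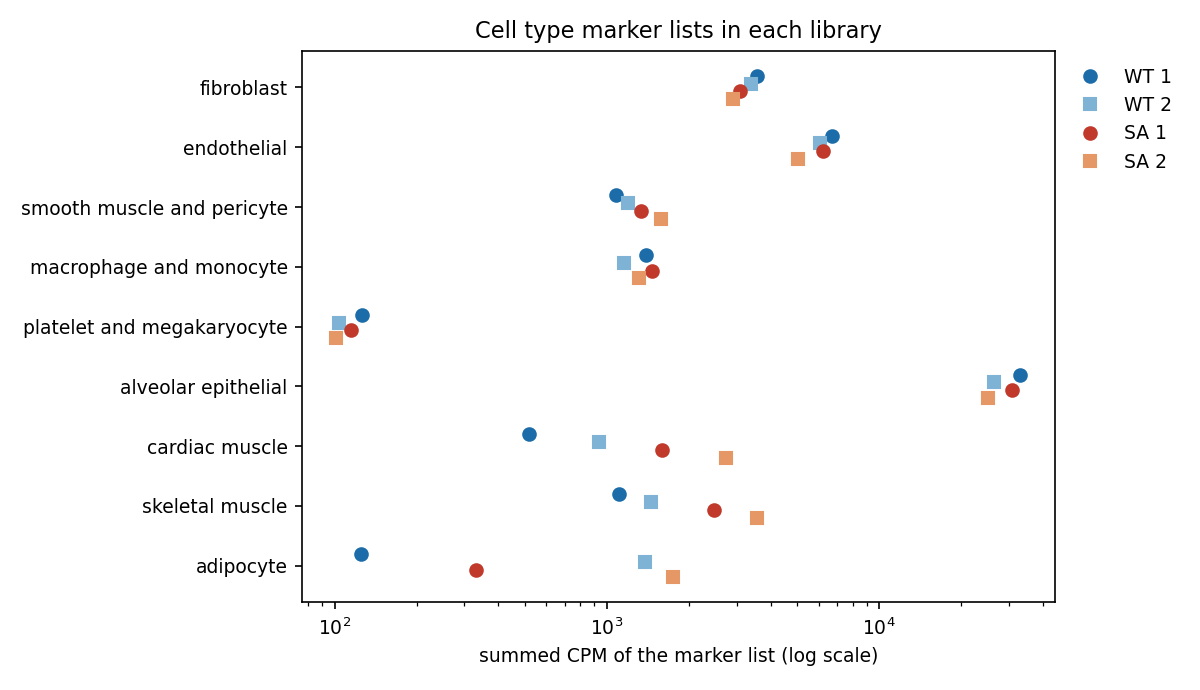
Summed CPM of marker lists (horizontal axis, log scale) in each library. Cardiac and skeletal muscle sums are lowest in WT 1 and highest in SA 2, adipocyte sums are high in WT 2 and SA 2, and endothelial sums overlap between the genotypes.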

How the data were processed

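Total RNA of lung was made into strand-specific libraries after ribosomal RNA removal, per the labels' protocols. The submitters' processing notes name Subread, featureCounts, limma and the build GRCm38, while versions, settings and annotation release are not given in the sources. The deposited values are log2 CPM in 2 tables. From the values, each is the log2 of reads plus 0.5 scaled to the library total, and inverting it returned whole reads, to within 0.001 read, in 100% of genes. Repeated lines of an identifier hold equal values and were kept once.

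The filtered table was fitted in R 4.3.3 with limma 3.58.1, genotype being the single factor, with a mean-variance trend, two-sided tests and Benjamini-Hochberg adjustment over 12850 genes at 0.05. There were 2 residual and 2.25 prior degrees of freedom. With 2 libraries a group no permutation of samples can reach 0.05. No floor of reads was applied in the fit, and 3 reads equal 0.078 to 0.11 CPM. Counting error does not cover spread between animals. A count model was not run, since the unit is log2; voom was run on the recovered reads. The test was checked on simulated libraries. Positions and exonic lengths came from GENCODE M21 on GRCm38, and figures from matplotlib 3.10.9.

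The genes, lists and naming rule were chosen with earlier results of these data known. Named were the 10 genes, Ifnar1, pathway genes past the threshold, up to 4 genes of each pathway list with the lowest p (1 of them is not reported here), and the 3 nearest profiles to Tgfb1 and to the gene with the largest difference. Of 13 marker lists, those for lymphocytes (2 genes tested, median 0.51), ciliated and club cells (10 genes, 0.82), mesothelium (6 genes, 0.22), cartilage (2 genes, 1.55), adipocytes (7 genes, 0.92) and alveolar epithelium (10 genes, -0.14) are given here by their median difference. All 10 ciliated and club cell markers were higher in both SA libraries than in both WT libraries (37.8% of all genes). These markers summed to 18651 and 20154 CPM in WT and to 25769 and 23076 CPM in SA. Their median ran from 0.71 without WT 1 to 0.86 without WT 2. With 1 library left out, the adipocyte median was -0.93 without WT 1 and -0.25 without SA 2, the alveolar median 0.0069 without SA 2, and the lymphocyte median -0.05 without WT 1. The alternatives were a replicate block, all genes unfiltered, a minimum mean log2 CPM of 1, median centring, quantile normalization, no trend, a robust trend, a pseudocount of 2, voom with 2 scalings, and leaving out each library.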

Additional observations from a re-analysis of the deposited data

How the results depend on the processing

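Of 140 values for the 10 genes under 14 alternatives, 107 kept their direction and side of the threshold, 25 passed the threshold in the same direction, and 8 changed sign. The 8 belong to the level genes: Tgfb3 under median centring (-0.065), quantile normalization (-0.049), voom with median-of-ratios scaling (-0.036) and without SA 2 (-0.025), and Tgfbr1 under median centring (-0.081), voom with median-of-ratios scaling (-0.054), without WT 2 (-0.044) and without SA 1 (-0.031). With 1 library left out Tgfb3 ranged from -0.025 to 0.076 and Tgfbr1 from -0.044 to 0.061. Unadjusted p was under 0.05 for 7 of the 10 in the main fit, 8 with quantile normalization, 6 without the trend and 7 with a pseudocount of 2. All were lower in SA. Of all genes 10.9%, 14.4%, 9.81% and 10.9% were lower there at that p, and 16.4%, 10.2%, 15.8% and 16.5% were higher. No count of the 10 is given with 1 library left out, where 1 group holds 1 library. In each of the fits just named the count of the 10 past the threshold was 0. It was 6 with the replicate number as a block, 5 with the unfiltered table, 2 with the filter at a mean of 1, 4 with median centring, 4 with a robust trend, 1 with voom on library totals and 3 with voom after median-of-ratios scaling, all lower in SA; of all genes 9.39%, 1.54%, 1.64%, 2.39%, 2.18%, 0.864% and 1.74% were called lower there. Ltbp1 was called in 7 of the 14, with adjusted p from 0.00057 to 0.25, and Ltbp3 in 6. In the same order, with the block first, pathway genes past the threshold numbered 39, 24, 8, 13, 13, 3 and 9, against 0 in the main fit and in the alternatives that called 0 of the 10. All genes past the threshold numbered 3179, 2213, 415, 476, 611, 268 and 386, against 40, with 0 under quantile normalization (3157 at an unadjusted p under 0.05), 1 without the trend, and 0 to 6 with 1 library left out. The 40 were 19 lower and 21 higher; median centring gave 307 lower and 169 higher. The median over the 10 genes was -0.43 with median centring, -0.40 with median-of-ratios scaling, and -0.40 to -0.31 with 1 library left out. Leaving out a library leaves 1 in its group, assumed to vary like the others. Same-numbered libraries deviated together (correlation 0.44 over 12850 genes, and 0.64 over the 12041 with a mean of at least 1), but 2 groups of 2 with no shared animal or batch in the labels share only a number, and the block leaves 1 residual degree of freedom. The unfiltered table raised the prior degrees of freedom to 13.8. Causes of the changes were otherwise not tested.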
